A study of Rattus norvegicus with 18 samples.

Results

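The genes described here encode the proteins of the presynaptic vesicle and of transmitter release. They were 52 listed genes, found by gene symbol among 22523 probes, with 1 probe taken per gene (the probe with the highest mean signal). Of the 52 genes 49 had a probe, and 35 of these were kept because the probe was detected above the negative control beads (detection p of at most 0.02) on at least 1 of 18 arrays. The whole series kept 11079 probes for 10797 of 21563 gene symbols.

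RNA came from primary rat cortical neurons, cultures in which the study notes rare glial cells. A lentivirus carrying CHD5 shRNA, or a control lentivirus carrying a scrambled shRNA, was applied for 6 hours on day 1, and RNA was taken at day 5, day 9 or day 12 with 3 replicates (a, b and c) per shRNA and day. All 6 groups therefore received a lentivirus, made in HEK-293T cells with the pLKO.1 vector. A single CHD5 shRNA was used on these arrays, so depletion of CHD5 and any other effect of that shRNA cannot be told apart, and no probe on the array is annotated to Chd5 itself. Nothing states whether the 3 replicates were separate cultures, so p-values measure only the spread between arrays.

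A synaptic vesicle is filled by a proton pump and transmitter transporters, docks at the active zone through Rab3 and RIM proteins, and is primed by the Munc13 and CAPS proteins. Calcium entering the terminal binds synaptotagmin, and the SNARE proteins syntaxin-1, SNAP-25 and VAMP2 then fuse the vesicle with the plasma membrane. The ATPase NSF and its adaptor alpha-SNAP take spent SNARE complexes apart, and dynamin, amphiphysin, synaptojanin and AP180 retrieve the membrane. CHD5 is a chromatin remodelling ATPase of the Mi2 group that is found in neurons.

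Signals below are log2 values after each array was brought to a common mean and spread, and a difference is CHD5 shRNA minus control unless days are named. Deposited signals still contained the background of the array, so differences of probes close to background are smaller than they would be without it. A gene was called where limma's moderated test, adjusted over all kept probes by the Benjamini-Hochberg method, gave an adjusted p under 0.05. With 3 arrays against 3, an exact permutation test cannot go below 0.1.

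One array, the day 9 control of replicate b, stood apart. Its mean deposited signal was 134.8 (400.2 to 789.3 on the other 17 arrays), the spread of its log2 signals was 1.11 (1.72 to 2.02 on the others), and its highest correlation with any other array was 0.955 (at least 0.992 for the others). It widened the shared estimate of the spread, so counts are also given without it, a setting chosen after the data had been seen for the comparisons that do not use this array. Neuron markers were detected: all 13 genes of the neuron list that had a probe were kept, out of 20 listed, among them Tubb3, Stmn2 and Gap43 on all 18 arrays. Not every one was detected throughout, with Nefh on 1 array and Elavl3 and Camk2a on 13 each.

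Of the 35 kept genes 21 were detected on all 18 arrays. All 3 synapsins were kept, as were 5 of 6 vesicle membrane proteins, 6 of 11 calcium sensors, 8 of 11 SNAREs and SNARE regulators, 3 of 4 genes of the Rab3 group, 6 of 10 genes of the active zone and priming, and 4 of 5 of endocytosis. The 14 genes whose probe was detected on no array were Sv2c, Syt2, Syt5, Syt9, Doc2a, Doc2b, Vamp1, Rph3a, Unc13a, Unc13c, Pclo, Sh3gl2, Sncb and Sncg. Both listed synucleins and the calcium sensors of the Doc2 family are thus without a level here. Bsn, Cplx2 and Napb had no probe.

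On day 5 none of the 35 genes differed between CHD5 shRNA and control. The count was 0 by limma, beside 0.171% of all kept probes, and also 0 at an unadjusted p under 0.05, beside 5.66% of all kept probes. Differences ran from -0.19 for Syn1 to 0.21 for Rims1, the median was -0.01, and the smallest adjusted p was 0.954, for Stx1b2. Without the array that stood apart the count at day 5 was again 0, and with replicate letters as a block it was 0 as well. The groups did not overlap for 4 genes, Stx1b2 and Unc13b (higher) and Syt1 and Synj1 (lower), or 11.4% of the 35, against 11% of all kept probes.

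On day 9, 3 of the 35 genes were called higher with CHD5 shRNA, and none was called lower. They were Stx1a (syntaxin-1A, the plasma membrane SNARE), Nsf (the ATPase that recycles SNAREs) and Rab3a (the vesicle GTPase). At day 12 Stx1a and Nsf were called higher, and again none was called lower. The share of the 35 genes called was 8.57% at day 9 and 5.71% at day 12, beside 5.89% and 5.47% of all kept probes, with 3.65% and 2.23% of probes called higher and 2.25% and 3.24% lower. The shares of the list were thus near those of all probes. With median centring of the arrays in place of a common mean and spread, every one of these calls was lost (adjusted p of 0.0957 to 0.309 by limma). The median difference of the 35 genes was 0.05 at day 9 and 0.09 at day 12, beside -0.02 and 0.01 over all probes.

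Stx1a, detected on 17 of 18 arrays, read 7.23, 7.03 and 7.03 in control and 7.14, 7.24 and 7.29 with CHD5 shRNA at day 5. At day 9 the control arrays read 6.98, 7.0 and 6.86 and the CHD5 shRNA arrays 7.51, 7.22 and 7.51. By day 12 they read 6.85, 6.77 and 7.04 against 7.53, 7.18 and 7.57. The groups overlapped at day 5 and were apart at both later days, every CHD5 shRNA array lying above every control array. The difference was 0.47 ± 0.12 (SE, adjusted p = 0.0256 by limma) at day 9, or 1.38-fold, and 0.54 ± 0.12 (adjusted p = 0.00966) at day 12, or 1.46-fold.

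Stx1a was called at both days without the array that stood apart, with 0.51 (adjusted p = 0.0127) and 0.55 (adjusted p = 0.00187). The call was lost at day 9 without control replicate c, CHD5 shRNA replicate a or CHD5 shRNA replicate c (adjusted p of 0.0748, 0.119 and 0.156), and at day 12 without control a, control b, CHD5 shRNA a or CHD5 shRNA c (adjusted p of 0.0521 to 0.0671). After background correction with neqc the difference of Stx1a was 1.19 at day 9 and 0.95 at day 12.

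Nsf was detected on all arrays. Its signals at day 9 were 9.67, 9.08 and 9.43 in control and 9.95, 9.90 and 9.97 with CHD5 shRNA, and at day 12 they were 9.50, 9.79 and 9.67 against 10.19, 10.45 and 10.03. The groups did not overlap at either day, while at day 5 they did (9.56, 9.58 and 9.85 against 9.54, 9.91 and 9.77). Nsf was 0.55 ± 0.15 higher at day 9 (adjusted p = 0.035) and 0.57 ± 0.15 higher at day 12 (adjusted p = 0.0265), about 1.46-fold and 1.49-fold. Without the array that stood apart, which read lowest of its group, the difference at day 9 was 0.40 and was no longer called (adjusted p = 0.0628), whereas at day 12 it was 0.59 (adjusted p = 0.0023). The call at day 12 was also lost without control replicate a or c or CHD5 shRNA replicate a or b (adjusted p of 0.0791 to 0.164), and at day 9 without each of the other arrays except control replicate a (adjusted p of 0.062 to 0.156).

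Rab3a read 8.45, 7.52 and 8.08 in control and 8.93, 8.25 and 9.00 with CHD5 shRNA at day 9. The groups overlapped, and the lowest value came from the array that stood apart. The difference was 0.71 ± 0.20 (adjusted p = 0.0474), and without that array it was 0.47 (adjusted p = 0.0965). It was also lost without control replicate c or CHD5 shRNA replicate a or c (adjusted p of 0.075, 0.196 and 0.258). At day 12 the values were 8.49, 8.50 and 8.40 against 8.95, 8.91 and 8.82, with no overlap, and the difference of 0.43 ± 0.20 was not called (adjusted p = 0.314). With only the day 12 arrays fitted it was called (adjusted p = 0.000299).

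**Figure D1:**
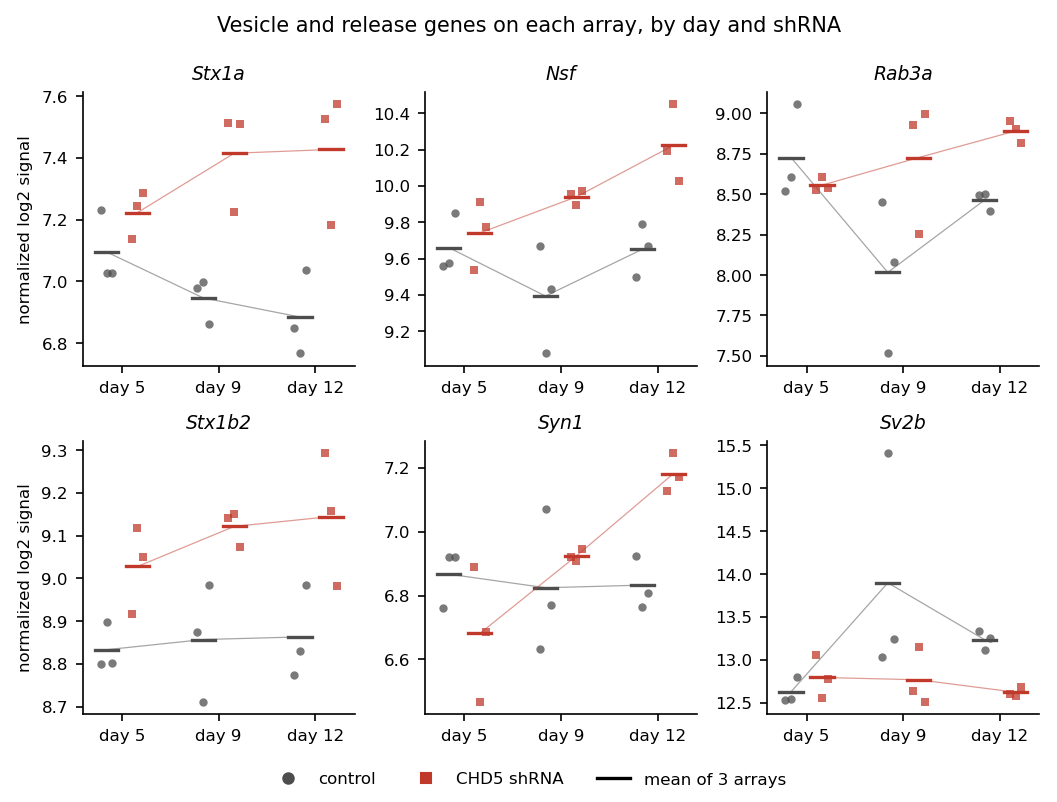
Normalized log2 signal (vertical axis, each panel with its own range) of 6 vesicle and release genes on every array, by day, in control (grey circles) and CHD5 shRNA cultures (red squares), with bars at the mean of 3 arrays. Stx1a and Nsf separate at day 9 and day 12, and the day 9 control array at 15.41 in the Sv2b panel and at 7.52 in the Rab3a panel is the one that stood apart.

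The bases before the annotated start of the 3 called genes are shown because they were the members called after CHD5 depletion, with letter matches in capitals (GGGCGG, the GC box, or CCGCCC, the same letters on the opposite strand). Each run holds 250 bases upstream of the start, written 5′ to 3′ along the gene, from RefSeq on rat build GRCr8. Those of Stx1a lie at chr12:27306472-27306721, minus strand, those of Nsf at chr10:89357384-89357633, minus strand, and those of Rab3a at chr16:18722274-18722523, minus strand.
Stx1a: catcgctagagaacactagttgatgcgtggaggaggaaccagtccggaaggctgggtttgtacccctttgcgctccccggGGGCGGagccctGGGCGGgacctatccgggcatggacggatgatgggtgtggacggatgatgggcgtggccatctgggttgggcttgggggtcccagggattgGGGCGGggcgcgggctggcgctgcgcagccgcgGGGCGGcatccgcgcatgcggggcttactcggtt
Nsf: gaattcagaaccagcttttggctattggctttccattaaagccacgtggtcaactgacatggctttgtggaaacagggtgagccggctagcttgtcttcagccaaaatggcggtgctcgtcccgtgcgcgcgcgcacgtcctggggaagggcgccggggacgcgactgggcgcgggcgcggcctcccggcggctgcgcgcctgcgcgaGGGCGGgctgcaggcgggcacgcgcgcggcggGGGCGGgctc
Rab3a: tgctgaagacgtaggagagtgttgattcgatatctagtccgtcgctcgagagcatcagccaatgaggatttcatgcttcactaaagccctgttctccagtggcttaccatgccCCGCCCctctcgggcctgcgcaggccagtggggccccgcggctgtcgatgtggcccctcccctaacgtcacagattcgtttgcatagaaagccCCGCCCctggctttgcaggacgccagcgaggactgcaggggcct
Stx1a holds 4 GC boxes on its own strand, which begin 170, 158, 67 and 34 bases before the start, and Nsf holds 2, at 42 and 10 bases. Rab3a holds 2 on the opposite strand, at 137 and 44 bases.

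The GC box, the TATA box, the cAMP response element and both parts of the RE1 element were searched on both strands in windows of 250 bases before to 50 after the start, available for 38 of the 52 genes and for 27457 genes in all. The GC box was in 27 of the 38 windows (71.1%) and in 34.9% of all windows. The windows of the list were also richer in G and C, with a median of 67.0% against 52.3%. The TATA box letters TATAAA were in 0 of the 38 and in 14.3% of all. The cAMP response element TGACGTCA, itself a palindrome, was in 4 (Syn1, Vamp1, Napa and Sh3gl2, 10.5% against 1.91%), the RE1 left part TCAGCACC in 4 (Syt4, Rab3c, Unc13a and Sncb, against 1.58%) and the right part GGACAGCG in 3 (Unc13a, Unc13b and Pclo, against 1.28%). In the 250 bases upstream of Syn1 (chrX:3725495-3725744, plus strand), shown for the response element in capitals, the match begins 190 bases before the start.
Syn1: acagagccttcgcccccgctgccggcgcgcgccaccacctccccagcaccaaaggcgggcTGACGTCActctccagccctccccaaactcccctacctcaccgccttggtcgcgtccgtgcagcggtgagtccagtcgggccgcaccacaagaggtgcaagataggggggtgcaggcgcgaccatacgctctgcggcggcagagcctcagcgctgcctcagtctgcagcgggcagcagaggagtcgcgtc
No binding was measured on these arrays, and a match is a match of letters alone.

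SNAREs and their regulators contained 2 of the 3 genes called at day 9 and both called at day 12. All 8 kept members of this group had a positive difference at day 12 (0.06 to 0.57, median 0.28), and 7 of 8 at day 9 (median 0.30). The signs at day 12 were not particular to this group. Of all 35 genes 28 were positive, with 6 of 6 of the active zone and priming, 3 of 3 of the Rab3 group and 1 of 4 of endocytosis. Over all kept probes the median was 0.01 at day 12 and -0.02 at day 9, and the share with a positive difference was not counted. Genes measured on the same arrays are not independent, so these signs are no test of the group. Stx1b2, the close paralog of Stx1a, read 8.88, 8.71 and 8.98 in control and 9.14, 9.15 and 9.07 with CHD5 shRNA at day 9. Its groups did not overlap there, yet its difference of 0.26 ± 0.10 was not called (adjusted p = 0.14), and the value at day 12 was 0.28 ± 0.10 (adjusted p = 0.142). Snap25, which encodes the SNARE SNAP-25, differed by 0.50 ± 0.19 (adjusted p = 0.126) at day 9 and 0.28 ± 0.19 (adjusted p = 0.546) at day 12. Cplx1, the complexin that clamps and primes the SNARE complex, differed by 0.10 at day 9 and by 0.32 at day 12 (adjusted p = 0.168), and Napa, which encodes alpha-SNAP, the NSF adaptor, by 0.34 (adjusted p = 0.0746) and 0.14. Vamp2, the vesicle SNARE, and Stxbp5, which encodes tomosyn, lay within 0.07 of 0 at both days.

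The other Rab3 genes were not called at either day. Rab3b differed by 0.07 ± 0.13 at day 9 and by 0.44 ± 0.13 at day 12 (adjusted p = 0.0551), where its arrays read 7.26, 7.12 and 7.03 in control and 7.64, 7.54 and 7.55 with CHD5 shRNA. Rab3c, detected on 8 arrays and on none at day 12, differed by -0.05 and 0.15.

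In the active zone and priming group, Rims1, the RIM scaffold that binds Rab3 and calcium channels, had the largest positive difference of the 35 genes at day 9. It read 8.55, 7.98 and 8.02 in control against 9.03, 8.57 and 9.17, a difference of 0.74 ± 0.22 that missed the threshold (adjusted p = 0.053). At day 12 it was 0.39 ± 0.22 (adjusted p = 0.43). Its paralog Rims2 differed by -0.11 and 0.01. Cadps, which encodes the priming protein CAPS, differed by -0.08 and 0.07, and Erc1, Erc2 and Unc13b by no more than 0.14 in size at either day. Erc1 and Unc13b were detected on no array at day 9 or day 12, and Erc2 on 8 arrays in all. Small differences of probes this close to background do not show that these genes were unchanged.

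Synapsins coat the vesicle and hold it in the reserve pool. Syn1 read 6.92, 6.77 and 6.81 in control and 7.13, 7.25 and 7.17 with CHD5 shRNA at day 12, with no overlap, and the difference of 0.35 ± 0.12 was not called (adjusted p = 0.102). Without the array that stood apart it was 0.36 (adjusted p = 0.0157). Syn2 differed by -0.21 and -0.15 and Syn3 by 0.06 and 0.17 at days 9 and 12, neither called.

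Among vesicle membrane proteins the differences went both ways. Syp, synaptophysin, differed by 0.29 ± 0.15 at day 9 and 0.39 ± 0.15 at day 12 (adjusted p of 0.28 and 0.174). Its relative Sypl differed by -0.37 ± 0.18 at day 12 (adjusted p = 0.318). Sv2b, a vesicle glycoprotein of the SV2 family, read 13.34, 13.11 and 13.25 in control and 12.60, 12.58 and 12.69 with CHD5 shRNA at day 12. These groups did not overlap. The shared spread of this probe held the array that stood apart, which read 15.41 against 13.04 and 13.25 on the other 2, and the difference of -0.61 ± 0.39 was not called (adjusted p = 0.524). Without that array it was -0.63 ± 0.14 (adjusted p = 0.00533), and at day 9 -0.38 (adjusted p = 0.133) in place of -1.13 ± 0.39 (adjusted p = 0.0962). Sv2a, detected on 10 arrays in all, and Synpr differed by no more than 0.21 in size at either day.

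None of the 6 kept calcium sensors was called at day 9 or day 12. Syt1, the main sensor of fast release, differed by -0.04 ± 0.09 and -0.14 ± 0.09, on arrays that at day 12 read 12.66, 12.58 and 12.53 in control and 12.46, 12.50 and 12.38 with CHD5 shRNA. Syt4, a synaptotagmin of neurons and glia, differed by 0.38 ± 0.12 at day 9 (adjusted p = 0.0606, and 0.43 with adjusted p = 0.0259 without the array that stood apart) and by 0.03 at day 12. Syt3, Syt7, Syt11 and Syt12 differed by no more than 0.24 in size. Of these, Syt7 was detected on only 2 arrays, Syt11 on 3 and Syt12 on 1. Their probes lay close to background, so these small differences do not show that the 3 genes were unchanged. In the endocytosis group, Dnm1 (dynamin) differed by 0.16 and -0.02 and Snap91 (AP180) by 0.20 and 0.04. Amph (amphiphysin) and Synj1 (synaptojanin) differed at day 12 by -0.29 ± 0.10 (adjusted p = 0.103) and -0.38 ± 0.16 (adjusted p = 0.225), and their day 12 groups did not overlap.

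**Figure D2:**
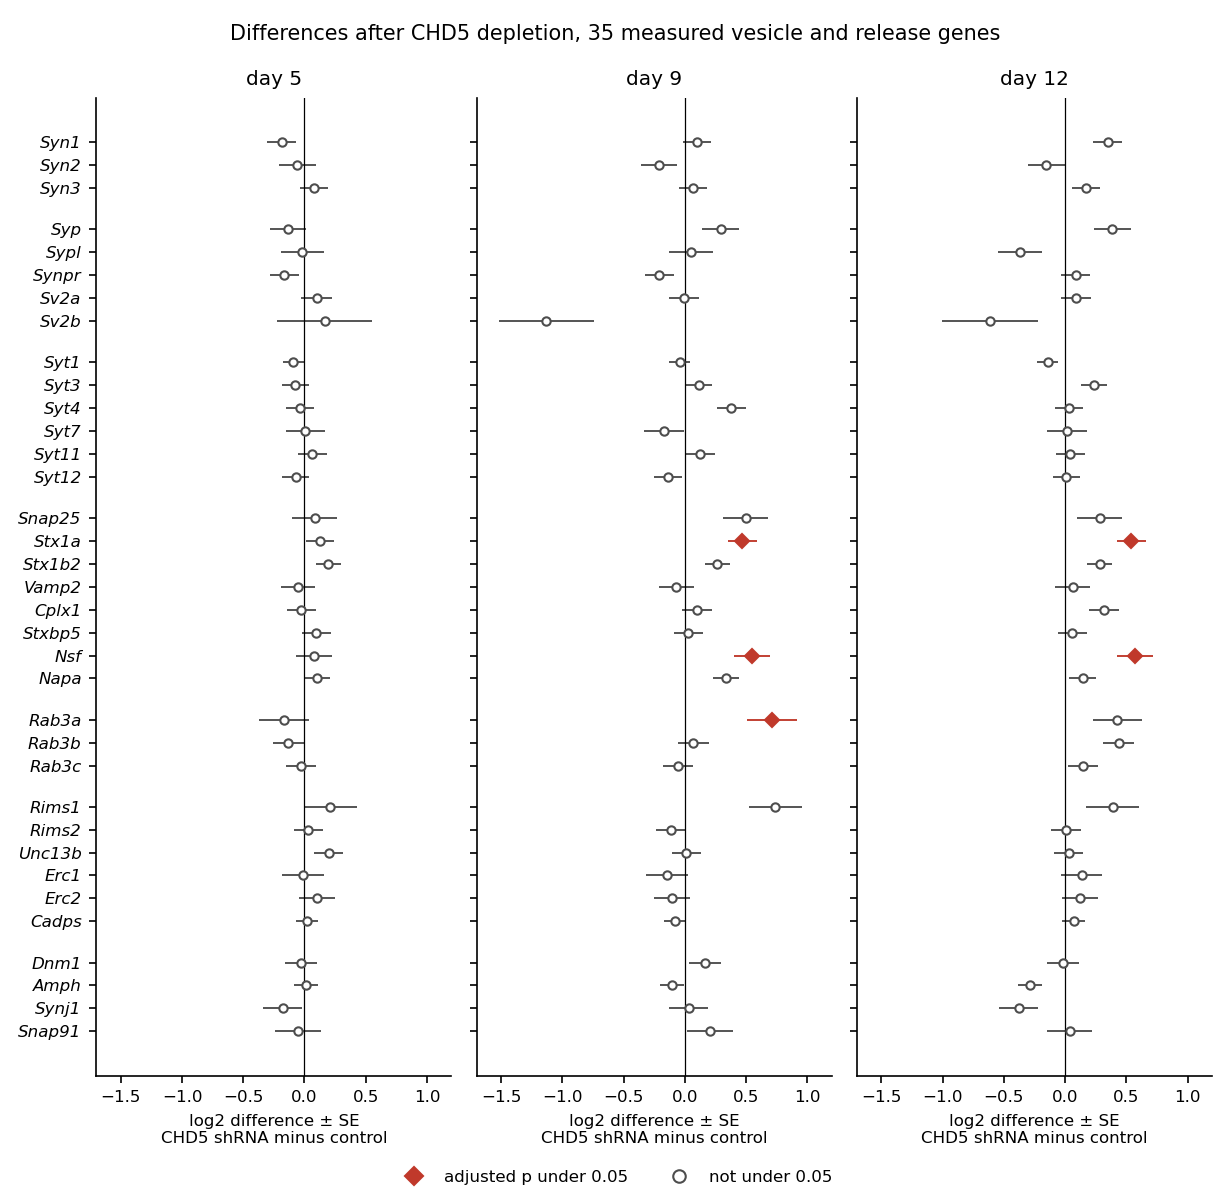
Log2 difference, CHD5 shRNA minus control, ± SE of limma's fit (horizontal axis) for each of the 35 kept genes, grouped by role, at day 5, day 9 and day 12; red diamonds are genes with an adjusted p under 0.05. Red marks stand at Stx1a, Nsf and Rab3a at day 9 and at Stx1a and Nsf at day 12, all to the right of 0, and the bars of Sv2b, ± 0.39, are the longest.

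The groups of 3 arrays did not overlap for 7 genes at day 9, all higher with CHD5 shRNA, which was 20% of the 35 against 20.6% of all kept probes (12.4% higher and 8.16% lower). At day 12 they did not overlap for 20 genes, 15 higher and 5 lower, or 57.1% against 38.2% of all kept probes (19.9% higher and 18.3% lower). The 5 lower genes were Sypl, Sv2b, Syt1, Amph and Synj1.

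How many of these genes were called at day 12 depended on the arrays in the fit. Without the array that stood apart, 10 were called at day 12, with 13% of all kept probes called. Stx1a, Stx1b2, Nsf, Cplx1, Syn1 and Rab3b were higher and Sypl, Sv2b, Amph and Synj1 lower. With the 6 day 12 arrays alone, 15 were called, 11 higher and 4 lower, with 23.6% of all probes called, and Stx1a and Nsf were again among them. At day 9 the same fit without that array called 3 (Stx1a, Syt4 and Cplx1, with 10.6% of all probes called), and the day 9 arrays alone called 0, as they did of all probes. The criteria of the study's own methods ask that the Z-ratio exceed 1.5 in size, that the Z-scores give p under 0.05 with the false detection rate below 0.3, and that the mean signal lie above background. As recomputed here, all of them together were met by 0 genes at day 9 and by 9 at day 12 (Syn1, Stx1a, Nsf, Rab3a, Rab3b and Rims1 higher, Sypl, Sv2b and Synj1 lower). The false detection rate was taken here as the Benjamini-Hochberg adjustment of a t-test on the Z-scores. How many of all kept probes met these criteria was not counted, so these counts have no share beside them.

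Markers of other cell types moved with these results. Of the astrocyte list, 12 of 15 genes were kept. Of the 12, 9 were called lower with CHD5 shRNA at day 9 (median -1.10) and 8 at day 12 (median -0.83), with 0 called at day 5 (median -0.24). All 12 had a negative difference at day 9 and at day 12, a share that was not counted over all kept probes. Their summed normalized signal at day 12 was 62064 to 66182 in control and 32743 to 34757 with CHD5 shRNA. At day 9 it was 34678 to 137638 and 19877 to 25852. Gjb6 was detected on no array, and Aldh1l1 and Glul had no probe. Markers of neurons that are not in the vesicle list were called higher in part, 4 of 13 at day 9 (Uchl1, Inexa, Thy1 and Tubb3) and 3 at day 12 (the same without Inexa). Differences were positive for 9 of the 13 at each of these days, with medians of 0.13 and 0.18. Their summed signal at day 12 was 48423 to 49461 in control and 53986 to 57425 with CHD5 shRNA. At day 9 that sum overlapped, at 40069 to 231862 and 57137 to 65094. Both day 9 control ranges include the array that stood apart, and sums without it are not given here. The part of the marker shifts in the values of the vesicle genes was not tested. In bulk RNA, a change in the number of cells of a type cannot be told apart from a change in RNA per cell.

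Smaller shifts were seen in the remaining marker lists. The oligodendrocyte lineage had 2 of 10 kept genes called lower at day 9 and at day 12, and fibroblast markers 2 of 4 at each day (Dcn and Col1a2, then Dcn and Lum). Differences were negative for 8 and then 10 of the 10 oligodendrocyte genes, and for 4 and then 2 of the 4 fibroblast genes. Interneuron markers had 1 of 11 called lower at day 9 (Npy) and 2 at day 12 (Npy and Calb2), and excitatory neuron markers 1 of 5 called higher at day 9 (Slc17a6). Differences were negative for 10 and then 9 of the 11 interneuron genes, and positive for 2 of the 5 excitatory genes at each day. Of proliferation markers 0 of 7 were called at either day, of endothelial and pericyte markers 0 of 3 and of microglial markers 0 of 2, and 8 of the 10 microglial probes were detected on no array.

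**Figure D3:**
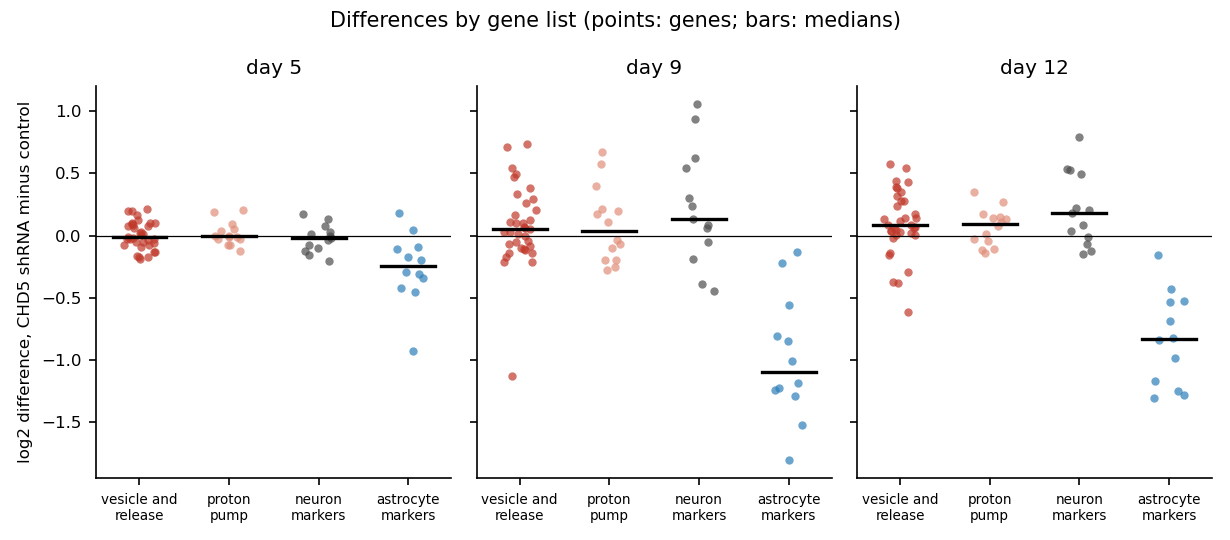
Log2 difference, CHD5 shRNA minus control (vertical axis), of each gene of 4 lists at day 5, day 9 and day 12, with a bar at each median. The 35 vesicle and release genes centre on -0.01, 0.05 and 0.09, and the 12 astrocyte markers on -0.24, -1.10 and -0.83.

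Further genes of the same pathway, from lists that hold no member, were counted in the same fit. Of 31 kept genes among 54 other vesicle and release genes, 5 were called higher and 1 lower at day 9, and 3 higher and 1 lower at day 12. Beside the counts of these lists, 0.171% of all kept probes were called at day 5, 5.89% at day 9 and 5.47% at day 12. The day 9 values include the control array that stood apart, and values without it are not given for these lists. With the day 9 arrays alone, 0 of all kept probes were called. Syngr3, a synaptogyrin of the vesicle membrane, was 0.98 ± 0.13 higher at day 9 (adjusted p = 0.000486) and 0.61 ± 0.13 higher at day 12. The liprins Ppfia3 and Ppfia2 were higher at both days (0.61 and 0.56, then 0.51 and 0.64). Rab3d, the Rab3 form known from secretory cells outside the nervous system, was lower at day 5 (-0.72 ± 0.14, adjusted p = 0.0493), day 9 (-0.52) and day 12 (-0.66).

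The vesicular proton pump had 3 of 14 kept genes called higher at day 9 (Atp6v0d1 by 0.58, Atp6v0a1 by 0.67 and Atp6v0e2 by 0.40) and 0 called at day 12 or day 5. Of 4 kept vesicular transporters, Slc17a6, which loads glutamate, was 0.58 ± 0.16 higher at day 9 and none was called at day 12. Of 18 kept further endocytosis genes, Ap2m1, a subunit of the clathrin adaptor AP2, was 0.62 ± 0.13 higher at day 9 and Dnajc6, auxilin, 0.34 ± 0.09 higher at day 12.

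Levels were also compared between days in culture. In control neurons 7 of the 35 were called between day 5 and day 12 (20%), a smaller share than the 23.6% of all kept probes. Dnm1, Syn2, Sypl, Syp, Amph and Syt1 were upregulated and Syt4 was downregulated. With CHD5 shRNA 11 were called (31.4%, beside 17% of all probes), 9 up (Syp, Dnm1, Syn2, Snap25, Syn1, Nsf, Synpr, Rab3b and Syt3) and 2 down (Syt4 and Unc13b). When any 1 of the 6 arrays compared was left out, 3 of the 7 calls in control (Syn2, Dnm1 and Syt4) and 5 of the 11 with CHD5 shRNA (these genes, Syp and Syn1) were kept each time. With median centring, the calls of Dnm1 in both cultures, and of Syp and Syn1 with CHD5 shRNA, were lost (adjusted p of 0.0623 to 0.174 by limma). The median change of the 35 genes was 0.03 in control and 0.16 with CHD5 shRNA, beside -0.02 and -0.01 over all probes. Astrocyte markers rose over the same days in both cultures, 12 of 12 kept genes each, with medians of 2.68 and 2.15, and the part of this in the values of the vesicle genes was not tested.

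Syp read 11.18, 11.17 and 11.19 in control at day 5 and 11.87, 11.33 and 11.66 at day 12. With CHD5 shRNA it went from 11.41, 10.77 and 10.94 to 12.05, 11.90 and 12.07. The arrays of the 2 days did not overlap in either culture. The rise was 0.44 ± 0.15 (adjusted p = 0.0377) in control and 0.96 ± 0.15 (adjusted p = 0.000159, 1.95-fold) with CHD5 shRNA. The call in control was lost without any 1 of the day 5 control arrays and without replicate a or c of day 12 (adjusted p of 0.0684 to 0.195), whereas the call with CHD5 shRNA was kept without any 1 of the arrays compared. Median centring lost the call in both control and CHD5 shRNA cultures (adjusted p of 0.525 and 0.103 by limma).

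Syn2 rose by 0.75 ± 0.15 in control (6.31, 6.93 and 6.63 to 7.29, 7.64 and 7.19, adjusted p = 0.00112) and by 0.66 ± 0.15 with CHD5 shRNA (6.46, 6.72 and 6.52 to 7.17, 7.26 and 7.24, adjusted p = 0.00496). At day 5 it was detected on 1 of 3 arrays of each culture, close to the background. Dnm1 rose alike, by 0.77 ± 0.13 from 10.70, 10.40 and 10.27 to 11.36, 11.18 and 11.15 in control (adjusted p = 0.000301) and by 0.78 ± 0.13 from 10.49, 10.34 and 10.45 to 11.32, 11.14 and 11.17 with CHD5 shRNA (adjusted p = 0.000445). For both genes no array of day 12 was below one of day 5. Median centring lost the Dnm1 call in both control and CHD5 shRNA cultures (adjusted p of 0.12 and 0.174 by limma).

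Syt4 was the gene that fell most. Its control arrays went from 8.49, 8.53 and 8.48 to 7.77, 7.82 and 7.78, and those with CHD5 shRNA from 8.31, 8.76 and 8.31 to 7.86, 7.72 and 7.90. It fell by 0.70 in control (adjusted p = 0.000176) and by 0.63 with CHD5 shRNA (adjusted p = 0.000832), and the days did not overlap in either culture. At day 9 it read 7.78, 7.80 and 7.55 in control and 7.95, 8.16 and 8.15 with CHD5 shRNA.

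Sypl rose by 0.65 ± 0.18 in control (adjusted p = 0.0113), from 9.44, 9.17 and 9.12 to 10.10, 9.71 and 9.89. With CHD5 shRNA it went from 9.30, 9.35 and 9.03 to 9.46, 9.52 and 9.61, a difference of 0.30 ± 0.18 that was not called (adjusted p = 0.285). Snap25 went the other way round, with 0.55 ± 0.19 called with CHD5 shRNA (11.06, 10.91 and 10.92 to 11.51, 11.44 and 11.60, adjusted p = 0.0481) and 0.36 ± 0.19 not called in control (11.27, 10.85 and 10.51 to 11.34, 11.10 and 11.27, adjusted p = 0.187). The Snap25 call was lost when any 1 of the 6 arrays compared was left out (adjusted p of 0.0724 to 0.148), and the Sypl call without day 12 control replicate a (adjusted p = 0.0655). Median centring lost both calls (adjusted p of 0.553 for Snap25 and 0.0895 for Sypl by limma). A call in 1 culture and not in the other is no test of a difference between them, which is the interaction test given last.

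Unc13b, a Munc13 priming factor and the only one of the 3 listed Munc13 genes with a kept probe, was detected on all 6 arrays of day 5 and on none of the 12 later arrays. With CHD5 shRNA its day 5 arrays read 6.93, 6.94 and 7.05, a mean of 6.97, and the measured mean at day 12 was 6.51, where the probe was not well above background. Set against the lowest detected signal of each day 12 array, its day 5 level was at least 1.15-fold higher, a bound that was not tested. The measured difference between these days was -0.46 and was called (adjusted p = 0.0123 by limma). The call was lost without day 5 replicate c or day 12 replicate a (adjusted p of 0.0534 and 0.0605), and with median centring (adjusted p = 0.328). In control the bound was 1.02-fold and the fall was not called (adjusted p = 0.0918).

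**Figure D4:**
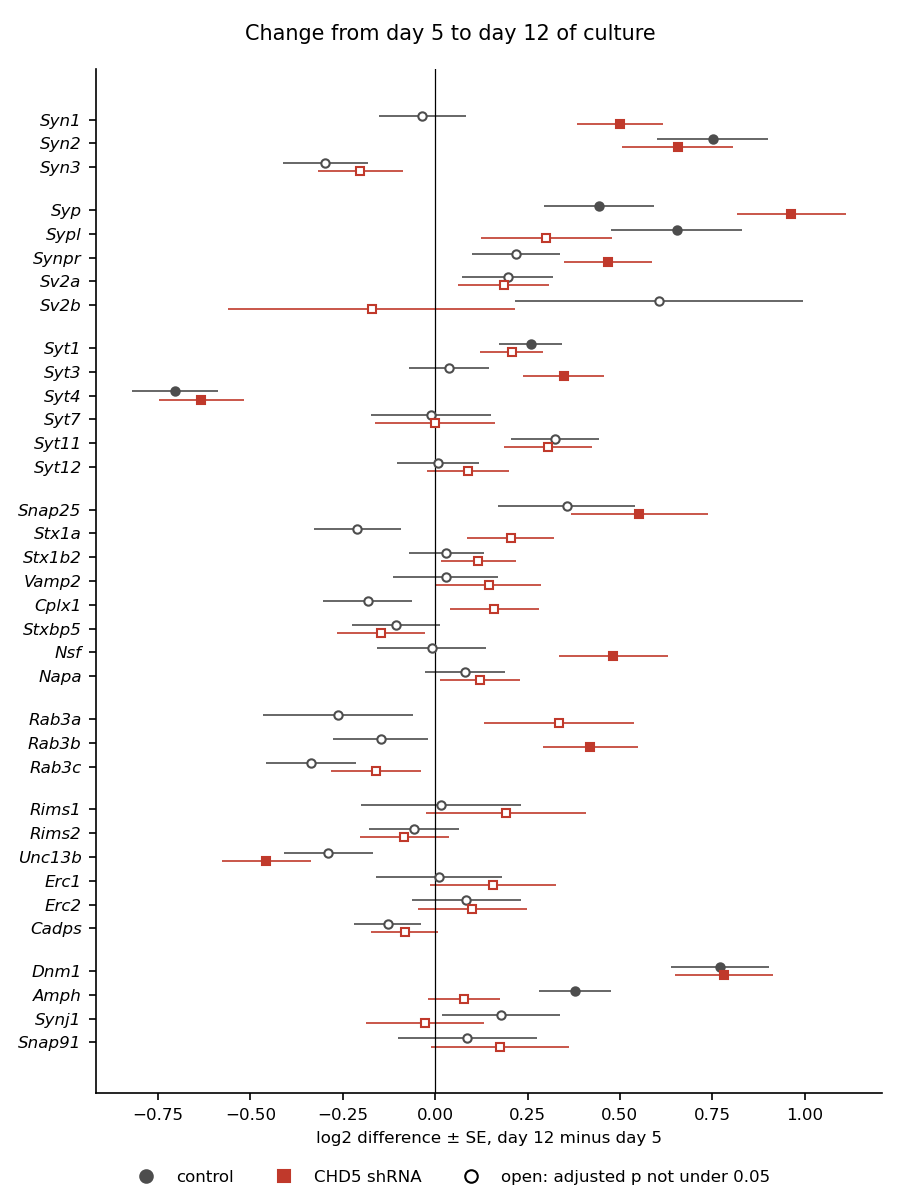
Log2 difference, day 12 minus day 5, ± SE of limma's fit (horizontal axis) for each of the 35 kept genes in control (grey circles) and CHD5 shRNA cultures (red squares); filled marks have an adjusted p under 0.05. Filled marks stand at 7 genes in control and 11 with CHD5 shRNA, with Syp with CHD5 shRNA farthest to the right (0.96) and Syt4 farthest to the left in both cultures.

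**Figure D5:**
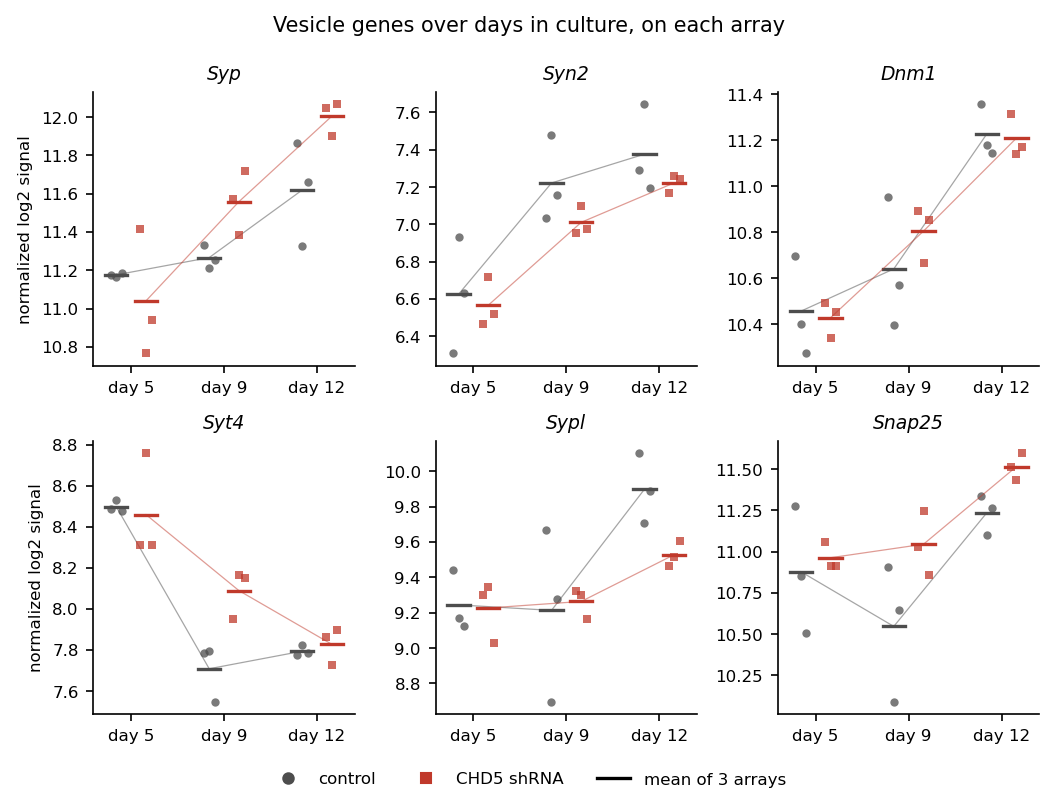
Normalized log2 signal (vertical axis, each panel with its own range) on every array of Syp, Syn2, Dnm1, Syt4, Sypl and Snap25 by day in control (grey circles) and CHD5 shRNA cultures (red squares), with bars at the mean of 3 arrays. Syp, Syn2 and Dnm1 are higher at day 12 than at day 5 in both cultures and Syt4 is lower.

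Without the array that stood apart, 12 genes were called between day 5 and day 12 in control (8 up and 4 down, 38.4% of all probes) and 14 with CHD5 shRNA (11 up and 3 down, 31.6% of all probes). Added in control were Sv2b and Syt11 (up) and Syn3, Rab3c and Unc13b (down), and added with CHD5 shRNA were Syt1 and Syt11 (up) and Syn3 (down). Some of these probes lay close to background. Syt11 was detected on no array at day 5, and at day 12 on 1 of 3 in control and 2 of 3 with CHD5 shRNA. In control at day 12, Rab3c and Unc13b were detected on 0 of 3 arrays and Syn3 on 1.

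Over the shorter intervals the genes called differed. In control, 7 genes were called between day 5 and day 9 (22% of all probes), with Syn2, Sv2b and Amph up and Syt4, Rab3a, Rims1 and Snap91 down. Of these Rab3a, Rims1, Amph and Snap91 were lost without the array that stood apart, a fit that called 20.7% of all probes. Synpr (up) and Syn3 and Unc13b (down) were added, and the rise of Sv2b went from 1.27 to 0.53 (adjusted p = 0.0245). Between day 9 and day 12 Sypl, Snap25 and Dnm1 were up in control (4.16% of all probes called). Without that array Dnm1 alone remained (0.48, adjusted p = 0.0304), with 6.23% of all probes called. With CHD5 shRNA, Syp was the 1 gene called between day 5 and day 9 (0.52, adjusted p = 0.036, 9.33% of all probes). Without that array 6 were called (Syn2, Syp, Syt11 and Dnm1 up, Syt4 and Unc13b down), with 25.4% of all probes called. Of these, Syt11 was detected on no CHD5 shRNA array of either day and Unc13b on none of day 9, so their changes lie close to background. Between day 9 and day 12 the count with CHD5 shRNA was 0 by limma (1.37% of all probes called), or 7 at an unadjusted p under 0.05 (9.82% of all probes). Without the array that stood apart the count by limma was 2, Dnm1 and Snap91, with 4.91% of all probes called.

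Whether the effect of CHD5 shRNA itself changed between days was tested as an interaction. None of the 35 genes was called by limma from day 5 to day 9, from day 9 to day 12 or from day 5 to day 12, beside 0%, 0% and 0.153% of all probes. Unadjusted p was under 0.05 for 4, 1 and 6 of the 35, beside 7.3%, 2.36% and 6.75% of all probes. The smallest adjusted p was 0.265, for Syn1, whose difference moved by 0.53 ± 0.17 from day 5 to day 12. The other values under an unadjusted p of 0.05 over that interval were 0.57 for Rab3b, 0.52 for Syp, 0.49 for Nsf, 0.41 for Stx1a and -0.30 for Amph. Without the array that stood apart, Syn1 (0.55, adjusted p = 0.0349) and Sv2b (-0.80, adjusted p = 0.043) were called, beside 2.36% of all probes. Syn1 read 6.76, 6.92 and 6.92 in control and 6.89, 6.47 and 6.69 with CHD5 shRNA at day 5, where it was detected on 1 of 3 CHD5 shRNA arrays. Sv2b read 12.53, 12.55 and 12.80 in control and 13.06, 12.55 and 12.77 with CHD5 shRNA at day 5. Its control arrays of day 12 were all above those of day 5, and its CHD5 shRNA arrays of the 2 days overlapped.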

How the data were processed

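RNA was measured on 18 Illumina RatRef-12 arrays, whose number limits the precision. The deposited signal intensities are bead means that the authors took from the scans in GenomeStudio, neither normalized nor background-subtracted. The deposited detection p-values were computed by the authors in that program against negative control beads. The 6 arrays of replicate a had a second measurement (r of 0.997 to 0.998 with the first), used only as an alternative. No genome build or slide of the arrays is given in the sources used here.

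Probes with a detection p of at most 0.02 on at least 1 array were kept, and their log2 signals were Z-transformed per array, as in the study's methods, and multiplied by the mean SD. limma 3.58.1 (lmFit and eBayes, R 4.3.3) was run on all 6 groups with no block, and p-values were adjusted per comparison over 11079 probes. The procedure was tested on simulated data. The labels do not state that the replicate letters pair the arrays, and correlations alone do not establish it. Same-letter deviations from the group means correlated by 0.27, 0.17 and 0.38 at day 5. The correlations were lower for some letters at day 9 (0.43, 0.15 and -0.20) and day 12 (0.05, 0.15 and 0.01).

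Genes named with every array are those called in a comparison of CHD5 shRNA with control, and the 4 largest called rises and falls from day 5 to day 12 in each culture. Others are the highest probe of a role and paralogs of named genes. Genes named for not overlapping, or for a call without 1 array, were chosen after their values were seen. The genes and lists were chosen with earlier results of these data known. Some genes counted within the lists are not reported here by name. All 49 genes with a probe matched RefSeq by Entrez ID. Alternatives were quantile normalization, median centring, neqc (offset 16), the detection filter left out or made stricter, a replicate block, only the arrays compared, the second measurement, the study's criteria, other probes of a gene, and leaving out each array.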

Additional observations from a re-analysis of the deposited data

How the results depend on the processing

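The report rests on 34 calls of a gene in a comparison. For the settings below, the share of all kept probes called was not counted except where it is given. Counts without that share cannot be read as particular to these genes. Taken over the other settings a call was kept 195 times and lost 77 times, over fits without 1 array it was kept 136 times and lost 89 times, and no called difference changed sign. Quantile normalization called 6 genes between CHD5 shRNA and control at day 12, 5 in control from day 9 to 12 and 11 from day 5 to 12, 3 with CHD5 shRNA from day 5 to 9, and 1 for the change of the effect from day 5 to 12. Median centring, which leaves the spread of the array that stood apart as it was, called 0 at day 9 and 0 at day 12. Over days it called 4, 0 and 3 in control (day 5 to 9, 9 to 12 and 5 to 12) and 0 and 4 with CHD5 shRNA (day 5 to 9 and 5 to 12). With neqc 4 were called at day 12 and 3 with CHD5 shRNA from day 5 to 9. Without the detection filter, over 49 genes, 1 was called at day 9, 3 in control from day 5 to 9 and 7 with CHD5 shRNA from day 5 to 12.

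With the replicate block 6 were called at day 9, and Snap25 was lost with CHD5 shRNA from day 5 to 12 (adjusted p = 0.051). It changed no other call among the 34, and the consensus correlation was 0.127. With only the arrays compared, the counts were 0 at day 9, 15 at day 12, 1, 0 and 11 in control (day 5 to 9, 9 to 12 and 5 to 12), 6 and 9 with CHD5 shRNA (day 5 to 9 and 9 to 12) and 1 for the change of the effect from day 5 to 12. Shares of all kept probes called were, in this order, 0%, 23.6%, 2.4%, 0.0271%, 29.2%, 26%, 15.1% and 1.7%. The second measurement gave 2 with CHD5 shRNA from day 5 to 9. The study's criteria gave 0 at day 9 and 9 at day 12.

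Leaving out 1 array gave 0 to 7 at day 9 and 0 to 10 at day 12. Over days it gave 3 to 14, 0 to 10 and 3 to 12 in control (day 5 to 9, 9 to 12 and 5 to 12) and 0 to 6, 0 to 2 and 5 to 14 with CHD5 shRNA. For the change of the effect from day 5 to 12 it gave 0 to 2. The cause of these shifts was not tested. The slide as a block was not run. The second probes of Stxbp5 and Rims2, detected on 2 arrays each, were not called in any comparison.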
